A study of Mus musculus with 20 samples.

Results

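The 5 genes described here, Pax2, Pax8, Osr1, Lhx1 and Wt1, encode transcription factors used as markers of the intermediate mesoderm, the strip of embryonic mesoderm from which the kidney forms. They were selected on their measured levels, because an earlier analysis of these libraries had compared their TPM values across the same 5 groups. Their levels are therefore given as a description with no test. All 5 were found by gene name among the 54446 gene IDs of the expression tables, and TPM here means a transcript abundance scaled to the same total in each library and corrected for gene length. Expression was measured by bulk RNA sequencing in structures grown from mouse embryonic stem cells of the line F1G4 with the genotype T::H2B-mCherry/Sox2::H2B-Venus, a double reporter for Brachyury and Sox2. All groups came from this reporter line. Each received a pulse, starting at 48 h, of 3 µM of the GSK3 inhibitor CHIR99021, which turns on WNT signalling. The CHIR added to TLSMGC and TLSMGCL, described below, came on top of this pulse. The 96h group held precursors of trunk-like structures, with 10 structures pooled per library. The other 4 groups were collected at 120 h with 6 structures pooled per library. Gastruloid denotes gastruloids grown by the Beccari protocol. TLSMG denotes trunk-like structures grown in Matrigel, an extract of basement membrane. TLSMGC denotes structures in Matrigel with added CHIR, and TLSMGCL denotes structures in Matrigel with CHIR and LDN, a name used for inhibitors of BMP receptors. Dose and timing of the added CHIR and LDN are not given in the sources used here. Each group had 3 libraries, labelled as biological replicates, and structures were picked for an asymmetric pole before pooling. The 5 single-cell samples of the series were not analysed here.

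In the vertebrate embryo the intermediate mesoderm lies between the paraxial mesoderm, which forms the somites, and the lateral plate. Osr1 and Lhx1 are among the first transcription factors active there, Pax2 and Pax8 then mark the nephric lineage and its duct, and Wt1 marks the kidney-forming mesenchyme and later the podocytes of the nephron. Each of these genes is also used elsewhere, so a level in a bulk library does not name a tissue: Lhx1 in the primitive streak and anterior mesendoderm, Pax2, Pax8 and Lhx1 in spinal interneurons, Osr1 in lateral plate, and Wt1 in coelomic epithelium. In these pooled samples, fewer cells of a type and less RNA per cell cannot be told apart.

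On build GRCm38 (mm10, per the submitters' processing notes), Pax2 lies on chromosome 19 from 44756045 to 44837871 on the plus strand. Pax8 lies on chromosome 2 from 24420560 to 24475599 on the minus strand. Osr1 lies on chromosome 12 from 9570116 to 9581500 on the plus strand. Lhx1 lies on chromosome 11 from 84518284 to 84525535 on the minus strand. Wt1 lies on chromosome 2 from 105126529 to 105173616 on the plus strand. Promoter windows from RefSeq (GRCm38.p6) matched 3 of the 5 genes, Pax2, Pax8 and Lhx1, with 5 windows of 250 bases before an annotated start. The windows were searched on both strands for the LEF/TCF motifs CTTTGAT and CTTTGTT, since CHIR activates the pathway that ends in these factors, and for the SMAD motifs GTCTAGAC and GGCGCC, since LDN acts on receptors that signal through SMADs. Neither LEF/TCF motif was found in the 5 windows. These letters occur in 3.21% and 5.03% of the 32851 promoter windows of the same length.

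The 2 windows upstream of the annotated Pax2 gene are shown because Pax2 had its highest level with CHIR and a low level with LDN added. The first ends 9445 bases before the gene's first base in the expression tables, holds 1 match to GTCTAGAC, in capitals, and lies on the plus strand at chr19:44746351-44746600. GTCTAGAC, which reads the same on both strands, occurs in 0.167% of the promoter windows. The second ends 294 bases before the gene at chr19:44755502-44755751 and holds none of the 4 motifs. No gene of the GENCODE M21 annotation overlaps either window.
Pax2 distal window: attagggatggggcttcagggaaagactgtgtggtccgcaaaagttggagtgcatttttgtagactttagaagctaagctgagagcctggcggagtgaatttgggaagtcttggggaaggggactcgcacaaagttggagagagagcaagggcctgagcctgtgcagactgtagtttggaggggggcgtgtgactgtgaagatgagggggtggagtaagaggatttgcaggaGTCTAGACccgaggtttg
Pax2 proximal window: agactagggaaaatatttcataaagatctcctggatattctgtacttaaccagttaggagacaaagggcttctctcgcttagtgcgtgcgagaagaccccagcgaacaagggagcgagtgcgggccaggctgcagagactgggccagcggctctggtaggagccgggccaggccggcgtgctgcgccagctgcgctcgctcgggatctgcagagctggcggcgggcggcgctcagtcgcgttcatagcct
The remaining Pax2 window lies inside the gene and held 2 matches to GGCGCC, a motif found in 9.59% of windows. The Pax8 window, at chr2:24475600-24475849 on the minus strand, held no match, and neither did the Lhx1 window. A match or its lack says only which letters stand in these windows.

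Lhx1 shares its start region with Lhx1os, a long noncoding RNA transcribed from the opposite strand. The 124 bases between the annotated first bases of both genes, at chr11:84525536-84525659, are shown on the minus strand because the levels of both genes are compared below. Capitals mark the only match to CCAAT, a common core promoter element, here as ATTGG on the opposite strand. CCAAT occurs on either strand in 33.8% of the 250-base promoter windows.
Lhx1 to Lhx1os: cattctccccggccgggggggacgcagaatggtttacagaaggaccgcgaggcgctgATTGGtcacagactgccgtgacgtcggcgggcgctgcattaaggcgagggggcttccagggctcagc

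Relative depth, taken as coverage per unit of FPKM, differed 2.19-fold between the shallowest and the deepest library, from 3.12 to 6.84, with the deepest being replicate 3 of TLSMG. Between 13688 and 14494 genes per library reached 1 TPM. Libraries of the same group correlated across genes at a Pearson's r of 0.985 to 0.991, and libraries of different groups at 0.939 to 0.988. The tests on other genes used limma with Benjamini-Hochberg adjustment over the 14290 genes that averaged 1 TPM or more across the libraries, and a gene is said to have risen or fallen where its adjusted p was under 0.05. Of the 5 genes, 4 met this minimum, and Pax8, with a mean of 0.767 TPM, did not. Differences are on the log2(TPM + 1) scale, which understates changes of genes with low TPM. Depth in read counts is unknown, so a gene at 0 is given as listed at 0 with no fold.

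Osr1, a zinc finger factor of the early intermediate mesoderm and the lateral plate, was high in the 96h and TLSMG groups and low elsewhere. In the 96h libraries Osr1 stood at 16.2, 11.6 and 9.52 TPM, a mean of 12.4 ± 3.41 TPM (SD, n = 3). The TLSMG libraries held 12.95, 10.6 and 7.37 TPM of Osr1, with a mean of 10.3 ± 2.81 TPM (SD, n = 3), and overlapped the 96h libraries. Osr1 was lower in every TLSMGC library, at 1.50, 3.35 and 2.59 TPM, and in every Gastruloid library, at 1.52, 1.05 and 0.915 TPM. These last 2 groups overlapped each other. In the TLSMGCL libraries Osr1 was nearly absent from the tables, at 0.0328, 0.0617 and 0.0459 TPM.

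Lhx1, a LIM homeodomain factor, had the highest level of the 5 genes at 96 h. The 96h libraries stood at 52.2, 46.5 and 46.8 TPM, a mean of 48.5 ± 3.22 TPM (SD, n = 3). TLSMGC came next with 15.6, 15.7 and 11.7 TPM of Lhx1, followed by TLSMG with 8.35, 7.92 and 7.41 TPM and TLSMGCL with 7.05, 5.16 and 6.82 TPM. Gastruloid was lowest with 2.49, 2.97 and 2.96 TPM. No group's libraries overlapped the next in this order on the TPM scale, although the lowest TLSMG library and the highest TLSMGCL library were close. The log2 difference of TLSMGCL from TLSMG was -0.29 ± 0.13 (SE). Its steps, TLSMGC against TLSMG and TLSMGCL against TLSMGC, were 0.77 and -1.06. They were 0.92 and -1.03 under median-of-ratios scaling and 0.80 and -0.95 with FPKM values. Lhx1 thus differed less between TLSMG and TLSMGCL under both of these scalings.

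Pax2, a paired-box factor of the nephric lineage, was highest in TLSMGC. Its level there was 5.38, 7.16 and 4.06 TPM, a mean of 5.53 ± 1.55 TPM (SD, n = 3). The TLSMG libraries at 2.07, 2.11 and 2.04 TPM and the 96h libraries at 1.81, 2.21 and 2.03 TPM overlapped, and both groups lay below TLSMGC. Pax2 stood lower in Gastruloid, at 1.35, 1.07 and 0.821 TPM. The TLSMGCL libraries were lowest at 0.257, 0.192 and 0.152 TPM, so the highest and the lowest level of Pax2 were in the 2 groups that received added CHIR.

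Pax8, the paralog of Pax2 that acts with it in the nephric lineage, reached 1 TPM in TLSMG alone of the 5 groups. Its libraries there held 4.12, 3.57 and 1.57 TPM, a mean of 3.09 ± 1.34 TPM (SD, n = 3), the widest spread of a gene in that group relative to its mean among the 5. The TLSMGC libraries held 0.581, 0.613 and 0.165 TPM of Pax8, and the Gastruloid libraries held 0.239, 0.344 and 0.0757 TPM, with overlap. Pax8 was listed at 0 in 2 of 3 libraries at 96 h, with 0.209 TPM in replicate 2, and in 3 of 3 TLSMGCL libraries.

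Wt1, a zinc finger factor of the kidney-forming mesenchyme, was also highest in TLSMG, at 5.44, 7.77 and 5.47 TPM, a mean of 6.23 ± 1.34 TPM (SD, n = 3). Gastruloid was the only other group with all libraries above 1 TPM, at 1.01, 1.50 and 2.53 TPM. Wt1 was listed at 0 in 3 of 3 libraries at 96 h. In TLSMGC it was listed at 0 in 2 libraries and at 0.0419 TPM in replicate 2, and in TLSMGCL at 0 in 2 libraries and at 0.111 TPM in replicate 1. The groups in which Wt1 reached 1 TPM were thus the 120 h groups whose labels name no added CHIR.

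**Figure D1:**
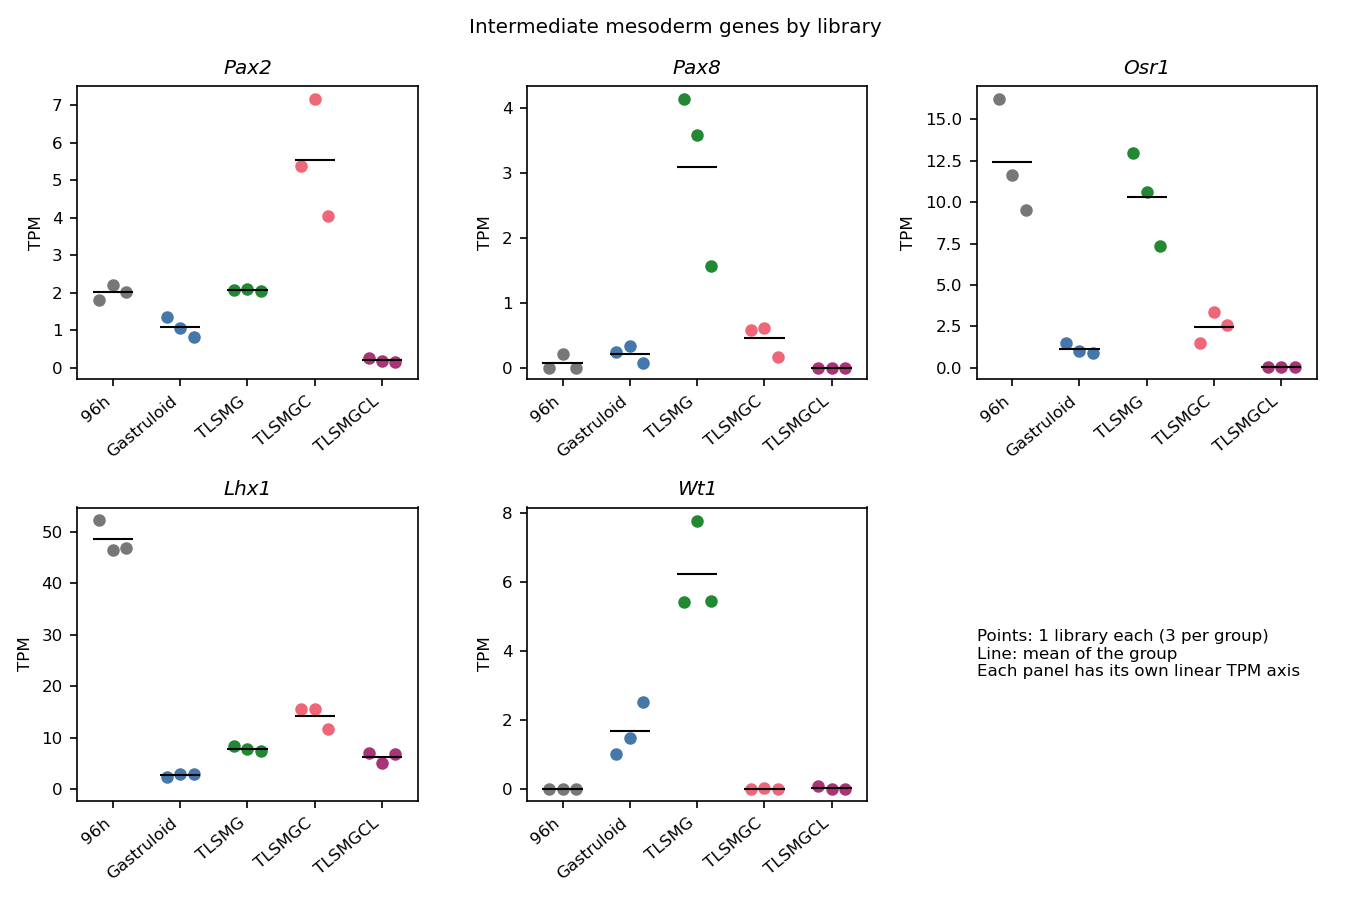
Level of Pax2, Pax8, Osr1, Lhx1 and Wt1 in TPM (vertical axis, linear, 1 scale per panel) in the 5 groups (horizontal axis). Each point is 1 library and each line the mean of 3. Pax8 and Wt1 were highest in TLSMG, Pax2 in TLSMGC, and Osr1 and Lhx1 at 96 h.

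The genes did not move as 1 block. Over the 15 libraries, Pax8 and Wt1 had the highest correlation of the 10 pairs on the log2(TPM + 1) scale, with a Pearson's r of 0.82, followed by Osr1 and Lhx1 at 0.64. Lhx1 and Wt1 had the lowest, at -0.45, and Pax2 and Wt1 stood at -0.02. These values describe 5 groups of libraries that share their treatment and are not tested. The closest family members were low in every group: Pax5 at most 0.102 TPM, Osr2 at most 0.42 TPM and Lhx5 at most 0.387 TPM as group means. None of these paralogs met the minimum for testing. The genes annotated over Pax2 and Osr1 on the opposite strand were listed at 0 in all libraries, and Gm13415, which spans the start of Pax8, had group means of at most 0.116 TPM.

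The first comparisons ask how levels changed from 96 h to 120 h. In Gastruloid against 96h, Lhx1 was 17.3-fold lower by mean TPM, a log2 difference of -3.70 ± 0.08 (SE). Osr1 was 10.7-fold lower at -2.62 ± 0.24, and Pax2 was 1.86-fold lower at -0.54 ± 0.12. Wt1 was higher, with 96h listed at 0, and the Pax8 libraries overlapped. Thus 3 of 5 genes were lower, 1 was higher and 1 overlapped. Among all tested genes, libraries did not overlap in 28.2% with Gastruloid higher and in 28.6% with Gastruloid lower. The selection of the 5 genes used these levels, so nothing is read from the count.

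In TLSMG against 96h, Osr1 and Pax2 overlapped, with log2 differences of -0.25 ± 0.30 and 0.03 ± 0.06 (SE). The Pax2 difference turned to -0.08 under median-of-ratios scaling and to -0.02 with FPKM values. Lhx1 was 6.14-fold lower at -2.48 ± 0.07, while Pax8, at 1.88 ± 0.32, and Wt1 were higher in every library. So 2 of 5 genes were higher, 1 was lower and 2 overlapped, beside 41.4% of all tested genes without overlap and higher in TLSMG and 17.0% lower.

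**Figure D2:**
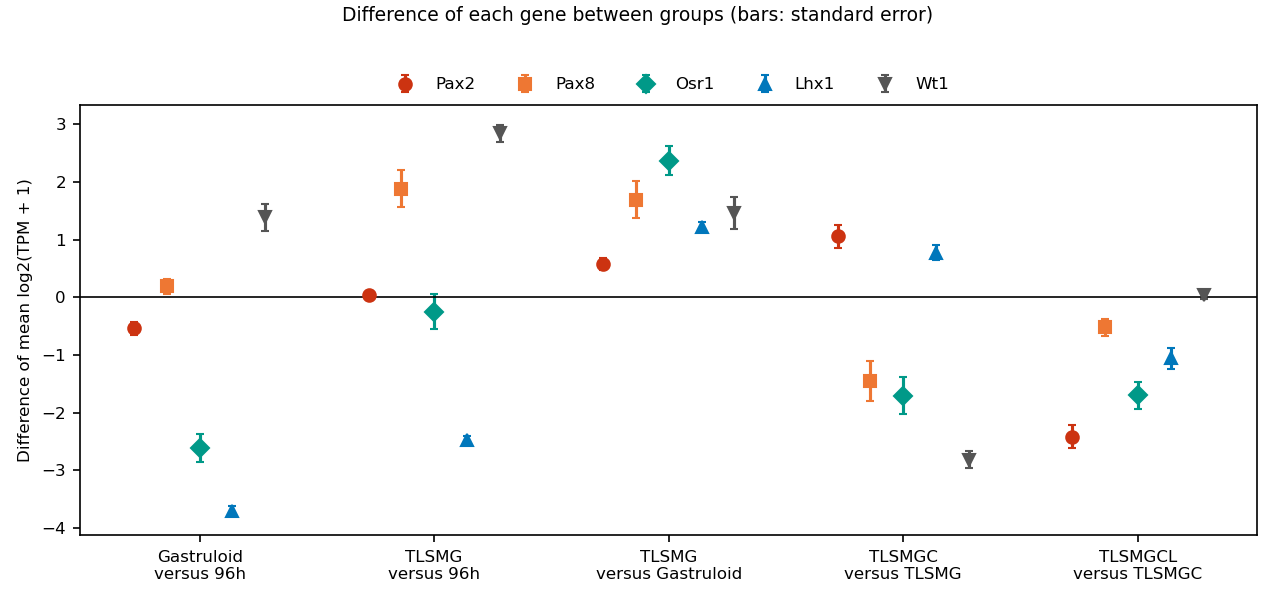
Difference of mean log2(TPM + 1) (vertical axis) of the 5 genes in the 5 comparisons (horizontal axis), with standard errors as bars. All 5 points lie above 0 for TLSMG against Gastruloid, and the points for Wt1 against 96h start from a group listed at 0. Pax2 and Lhx1 lie above 0 and the other 3 below 0 for TLSMGC against TLSMG.

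The rest of the kidney pathway was followed with 42 genes in 3 lists, 14 of the nephric duct and ureteric bud, 16 of the kidney-forming mesenchyme and 12 of nephron differentiation. Of these, 26 met the minimum for testing. From 96h to Gastruloid, 10 rose and 10 fell, with a median log2 difference of 0.18 against 0.00 for all genes, and 20.8% of all tested genes rose and 20.5% fell. From 96h to TLSMG, 13 rose and 6 fell with a median of 0.34 against 0.14, where 33.5% of all tested genes rose and 12.5% fell. The median of all genes shifts with the scaling: under median-of-ratios scaling it was -0.01 for TLSMG against 96h, the kidney genes split into 12 higher and 8 lower, and all genes into 3194 higher and 3299 lower in place of 4792 and 1785. With FPKM values, all genes split into 3950 higher and 2457 lower there, and into 3931 and 2371 in place of 2969 and 2925 for Gastruloid against 96h.

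Among the kidney genes, those of the nephron and the mesenchyme lists changed most in both comparisons. Cdh6, a cadherin of early nephron tubules and of other epithelia, rose from 2.06 TPM at 96 h to 12.2 TPM in Gastruloid and 18.8 TPM in TLSMG (limma adjusted p = 1.22e-07 and 9.95e-09). Foxd1, a stromal gene of the kidney, rose from 3.98 to 21.6 and 19.8 TPM (limma adjusted p = 6.4e-07 and 1.01e-06). Cited1, a gene of nephron progenitors that is also active in early mesoderm, fell from 165 ± 24.7 TPM to 22.8 ± 3.42 and 18.5 ± 1.57 TPM (SD, n = 3, limma adjusted p = 2.86e-09 and 1.28e-09). Gfra1, the co-receptor for GDNF on the nephric duct, rose in TLSMG from 0.0849 to 3.23 TPM, a log2 difference of 1.96 ± 0.13 (SE, limma adjusted p = 6.45e-08).

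Markers of the other tissues that use these 5 genes also differed at 96 h. The 10 genes of the node and anterior mesendoderm, where Lhx1 is active, summed to between 166 and 440 TPM in the 96h libraries, to 31.9 to 45.9 TPM in Gastruloid and to 37.9 to 50.7 TPM in TLSMG. Cer1 made up most of the 96h sum, with a mean of 240 TPM, and Nodal came next at 14.6 TPM. The fall in the sum is thus mainly that of Cer1. Of the 5 genes of this list that were tested, 2 fell and none rose in Gastruloid. In TLSMG 2 fell and 1 rose. Noto, of the node, was listed at 0 in all TLSMG libraries, with means of 0.362 TPM at 96 h and 0.0142 TPM in Gastruloid. Among all tested genes, 20.5% fell and 20.8% rose in Gastruloid, and 12.5% fell and 33.5% rose in TLSMG. Cer1, a secreted inhibitor made in anterior endoderm and in presomitic mesoderm, fell from 240 ± 143 TPM at 96 h to 24.1 ± 4.58 TPM in Gastruloid (SD, n = 3, limma adjusted p = 2.3e-06). Tbx6, of the presomitic mesoderm, fell from 323 ± 59.9 to 2.88 ± 1.39 TPM there (SD, n = 3, limma adjusted p = 4.87e-10). The part of these tissues in the level of Lhx1 at 96 h was not tested.

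Osr1 at 96 h was highest in replicate 1, and lateral plate genes stood apart in that library. Gata6 was at 18.4 TPM in 96h replicate 1 against 6.84 and 5.86 TPM in the other 96h libraries, and Hand1 at 9.75 against 0.977 and 0.445 TPM. The 12 lateral plate and heart genes summed to 22.5 to 68.0 TPM at 96 h, 10.2 to 13.6 TPM in Gastruloid and 22.4 to 33.0 TPM in TLSMG. In Gastruloid 6 of the 7 tested fell and none rose, while in TLSMG against 96h 1 rose and 1 fell. Among all tested genes, 20.5% fell and 20.8% rose in Gastruloid, and 12.5% fell and 33.5% rose in TLSMG. Nkx2-5 was listed at 0 in all 96h libraries and Hand1 in all Gastruloid libraries. The part of the lateral plate in the level of Osr1 was not tested.

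The next comparison asks what differed at 120 h between structures grown in Matrigel and gastruloids. All 5 genes were higher in every TLSMG library than in any Gastruloid library. Pax8 was 14.1-fold higher by mean TPM, with a log2 difference of 1.69 ± 0.32 (SE). Osr1 was 8.87-fold higher at 2.37 ± 0.25, and Wt1 was 3.71-fold higher at 1.46 ± 0.28. Lhx1 was 2.81-fold higher at 1.23 ± 0.08, and Pax2 was 1.92-fold higher at 0.57 ± 0.11. Among all tested genes, 39.4% did not overlap with TLSMG higher and 12.8% with TLSMG lower, and nothing is read from the 5 because their levels led to their selection. Under median-of-ratios scaling, where the median of all genes moved from 0.13 to -0.02, the 5 differences ran from 0.46 for Pax2 to 2.22 for Osr1.

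Of the 26 kidney genes tested, 13 rose and 1 fell in TLSMG against Gastruloid, with a median log2 difference of 0.31 against 0.13 for all genes. Among all tested genes 31.5% rose and 7.87% fell. Gfra1 rose from 0.681 ± 0.17 to 3.23 ± 0.37 TPM (SD, n = 3, limma adjusted p = 3.82e-05). Itga8, an integrin of the kidney mesenchyme, rose from 1.30 ± 0.23 to 4.17 ± 0.69 TPM (SD, n = 3, limma adjusted p = 0.000108). Sim1, of the nephric duct and of somites, rose from 4.29 to 8.77 TPM (limma adjusted p = 0.000582), and Six4, a homeodomain factor of the kidney mesenchyme, rose from 12.5 to 21.3 TPM (limma adjusted p = 0.000258). Podxl, a podocyte surface protein that is also present on other epithelia, rose from 22.2 to 35.9 TPM (limma adjusted p = 0.00327). Gata3, which acts downstream of Pax2 and Pax8 in the nephric duct, did not pass the test (limma adjusted p = 0.793), at 3.06 to 3.36 TPM in Gastruloid and 3.06 to 4.25 TPM in TLSMG. Ret, the receptor that pairs with Gfra1, fell from a range of 6.83 to 7.72 TPM to one of 4.79 to 4.99 TPM (limma adjusted p = 0.0392). That call was lost with a pseudocount of 0.1, with no filter on low values, with a replicate block and when any 1 of the 6 libraries was left out. Gata3 and Ret here, and Gata3, Gdnf, Hoxc10, Hoxa10, Nphs1, Bnc1, Tubb3, Isl1, Gata6, Cer1, Fgf17 and En2 below, were named after their values were seen. So was Itga8 in TLSMGC against TLSMG below.

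The split of the kidney genes leaned on the scaling and on single libraries. It was 7 higher and 3 lower under median-of-ratios scaling and 8 and 3 with FPKM values, where all genes split into 2763 and 2594, and 2710 and 2705, in place of 4497 and 1125. The number that changed in either direction was 7 without TLSMG replicate 2, and 9 without Gastruloid replicate 2, TLSMG replicate 1 or TLSMG replicate 3, against 14 with all libraries.

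Some of the genes that mark the differentiated or later tissue were at or near 0 in every group. Cdh16, a cadherin of the nephric duct and kidney tubules, was listed at 0 in all 15 libraries, and Wnt9b, a signal from the duct, had group means of at most 0.0649 TPM. Hoxd11 and Hoxa11, which pattern the metanephric kidney, had means of at most 0.0745 and 0.0648 TPM in any group. Other genes of these lists that did not meet the minimum for testing had higher means. Hoxc10 and Hoxa10, which pattern the posterior trunk, reached 2.35 and 0.941 TPM in TLSMG, Nphs1, of podocytes, reached 1.13 TPM at 96 h, and Bnc1, of mesothelium, 1.53 TPM in TLSMGCL. Upk3b and Msln, of coelomic epithelium, were listed at 0 throughout, and Nr5a1, of the gonad, had group means of at most 0.00968 TPM. The 10 coelomic and gonad genes summed to 42.3 to 45.5 TPM in TLSMG and to 26.3 to 27.2 TPM in Gastruloid. Of their 3 tested genes, 2 rose in TLSMG against Gastruloid, Emx2 and Podxl, which are also on the kidney lists. Among all tested genes 31.5% rose there.

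Lbx1, a marker of dorsal spinal interneurons and of migrating limb muscle precursors, differed most among the 3 neural genes tested. It was at 13.1, 15.7 and 13.5 TPM in TLSMG and at 0.352, 0.248 and 0.30 TPM in Gastruloid, a log2 difference of 3.54 ± 0.15 (SE, limma adjusted p = 2.89e-08). The 14 spinal interneuron and dorsal neural genes summed to 32.8 to 46.8 TPM in TLSMG and 20.7 to 23.5 TPM in Gastruloid, a difference that was mostly Lbx1. Tubb3, the highest of the list in both groups, averaged 15.0 TPM in TLSMG and 17.5 TPM in Gastruloid (limma adjusted p = 0.324). Of the 3 tested genes 2 were higher and none lower, beside 31.5% of all tested genes that rose and 7.87% that fell. Gad1, of inhibitory neurons, was listed at 0 in all TLSMG libraries, and Lhx5, which accompanies Lhx1 in such neurons, had a TLSMG mean of 0.0122 TPM. The part of neural cells in the levels of Pax2, Pax8 and Lhx1 was not tested.

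Lateral plate and node genes were counted in TLSMG against Gastruloid too. Of the 7 lateral plate and heart genes tested, 3 rose and none fell, with a median of 0.66 against 0.13 for all genes. Among all tested genes 31.5% rose and 7.87% fell in this comparison. Prrx1, of limb and lateral plate mesenchyme, rose from 1.31 ± 0.11 to 6.96 ± 2.16 TPM (SD, n = 3, limma adjusted p = 0.000765), and Isl1, a LIM homeodomain factor of heart and hindlimb progenitors, rose by 0.99 ± 0.20 on the log2 scale (SE, limma adjusted p = 0.00223). Gata6 rose from 1.45 to 4.40 TPM (limma adjusted p = 0.0251), a call lost with no filter on low values, with FPKM values and without Gastruloid replicate 1 or 3 or TLSMG replicate 1 or 3. Of the 5 node and anterior mesendoderm genes tested, 1 rose and 2 fell. Hhex, a homeodomain factor of anterior endoderm and blood vessel precursors, rose from 2.97 ± 0.77 to 19.5 ± 0.73 TPM (SD, n = 3, limma adjusted p = 1.34e-05). Cer1 fell from 24.1 to 11.7 TPM (limma adjusted p = 0.018), a call lost without Gastruloid replicate 2 or 3 or TLSMG replicate 2. The part of these tissues in the higher Osr1 and Lhx1 was not tested.

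**Figure D3:**
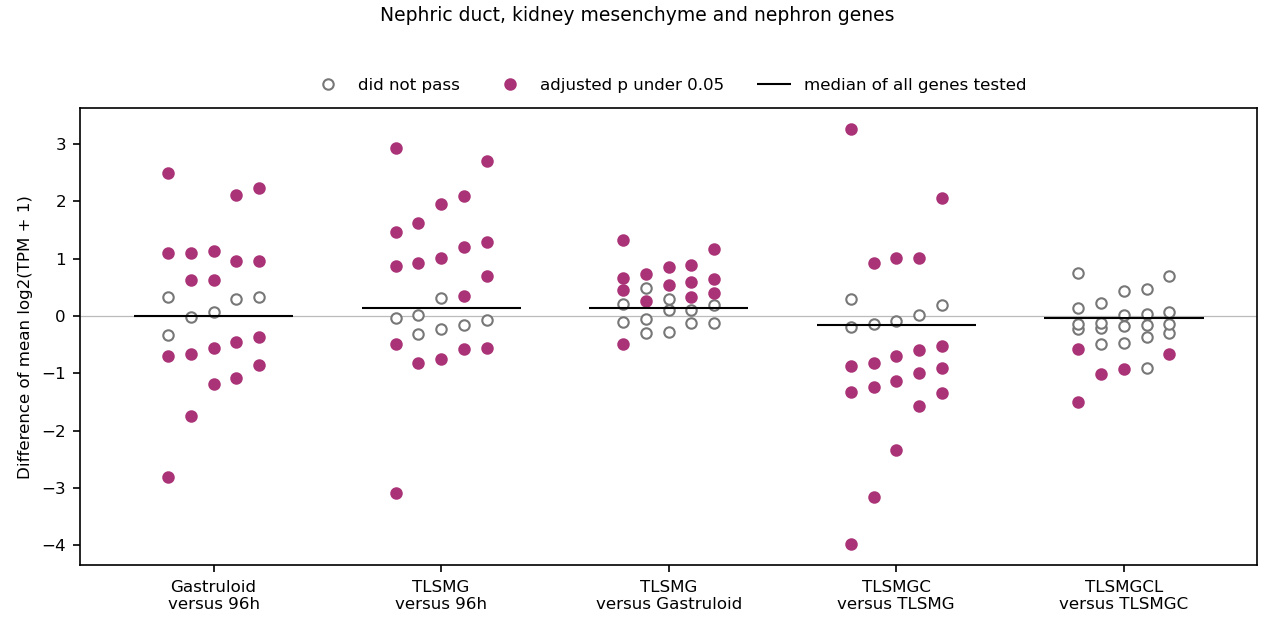
Difference of mean log2(TPM + 1) (vertical axis) of the 26 tested kidney genes in the 5 comparisons (horizontal axis). Filled points passed the limma test (adjusted p under 0.05), open points did not, and each line is the median of all 14290 tested genes. In TLSMG against Gastruloid 13 filled points lie above 0 and 1 below, and in TLSMGC against TLSMG 5 lie above and 15 below.

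Adding CHIR to structures in Matrigel split the 5 genes. Pax2 was 2.66-fold higher in TLSMGC than in TLSMG, a log2 difference of 1.06 ± 0.20 (SE), and Lhx1 was 1.81-fold higher at 0.77 ± 0.14. Pax8 was 6.83-fold lower at -1.45 ± 0.34, and Osr1 was 4.16-fold lower at -1.71 ± 0.32. Wt1 went from 5.44 TPM or more in each TLSMG library to at most 0.0419 TPM in TLSMGC, a difference of -2.82 ± 0.15. The libraries of the 2 groups did not overlap for any of the 5, with 2 higher and 3 lower in TLSMGC. Among all tested genes, 13.6% did not overlap with TLSMGC higher and 38.8% with TLSMGC lower. Pax2 and Pax8, close paralogs that share roles in the nephric lineage, thus lay on opposite sides.

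The kidney lists also divided, with 5 of 26 higher, 15 lower and 6 not passing the test in TLSMGC against TLSMG, and a median of -0.65 against -0.16 for all genes. Among all tested genes 10.4% rose and 30.5% fell. The kidney split was 5 and 15 under both other scalings too, whereas all genes split into 2621 higher and 2685 lower under median-of-ratios scaling and 2195 and 3167 with FPKM values, in place of 1490 and 4352. Wnt11, a signal from the tip of the ureteric bud that is also active in the tailbud, rose from 0.472 ± 0.38 to 12.9 ± 1.50 TPM (SD, n = 3, limma adjusted p = 3.6e-08). Cited1 rose from 18.5 ± 1.57 to 80.9 ± 12.2 TPM (SD, n = 3, limma adjusted p = 1.33e-07). Emx2, of the nephric duct, rose from 5.63 to 12.4 TPM (limma adjusted p = 2.66e-05), and Itga8 rose from a range of 3.46 to 4.83 TPM to one of 7.73 to 10.3 TPM (limma adjusted p = 7.04e-05). Gdnf, the ligand of Ret and Gfra1 in the kidney mesenchyme, did not meet the minimum for testing. It was listed at 0.843 to 1.65 TPM in TLSMGC, 0.467 to 0.907 TPM in TLSMG and at most 0.0951 TPM in any library of the other groups.

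Among the kidney genes that fell with CHIR, Cdh6 went from 18.8 ± 2.76 to 1.21 ± 0.08 TPM (SD, n = 3, limma adjusted p = 4.96e-09). Six2, which keeps nephron progenitors undifferentiated, fell from 10.2 to 1.20 TPM (limma adjusted p = 4.11e-06), and Npnt, an extracellular ligand of Itga8, fell from 4.68 to 1.31 TPM (limma adjusted p = 3.77e-05). Gata3 fell from a range of 3.06 to 4.25 TPM to one of 0.406 to 1.56 TPM (limma adjusted p = 0.00459). Of the 6 nephron genes tested, 4 fell and none rose, of the 9 mesenchyme genes 5 fell and 2 rose, and of the 11 duct genes 6 fell and 3 rose.

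Genes of other tissues moved in the same comparison, in which 10.4% of all tested genes rose and 30.5% fell. Evx1, a marker of ventral spinal interneurons that is also active in the posterior streak and tailbud, rose from 4.48 ± 0.94 to 18.1 ± 1.48 TPM (SD, n = 3, limma adjusted p = 1.05e-05), while Lbx1 fell from 14.1 to 2.93 TPM (limma adjusted p = 4.04e-07). The 14 spinal interneuron and dorsal neural genes summed to 33.5 to 39.7 TPM in TLSMGC, with 1 of 3 tested higher and 1 lower, and Slc32a1 was listed at 0. In the paraxial mesoderm list 3 of 12 rose and 6 fell. Msgn1, of the presomitic mesoderm, rose from 1.19 ± 0.57 to 36.6 ± 8.15 TPM (SD, n = 3, limma adjusted p = 1.57e-08), and Pax1, of the sclerotome, fell from 17.0 to 0.266 TPM (limma adjusted p = 6.18e-10). The 10 genes of the midbrain-hindbrain boundary and ear, where Pax2 and Pax8 are also active, summed to 71.4 to 74.4 TPM in TLSMG and 79.9 to 98.5 TPM in TLSMGC. Of their 2 tested genes 1 rose, Fgf17, a growth factor of that boundary and of the tailbud, from 11.9 ± 3.28 to 28.0 ± 5.64 TPM (SD, n = 3, limma adjusted p = 0.0101), a call lost without TLSMG replicate 2. En2, of the same boundary, did not meet the minimum for testing, with means of 0.249 TPM in TLSMG and 1.55 TPM in TLSMGC, and Oc90, of the ear, was listed at 0 in all TLSMG libraries and Foxi3 in all TLSMGC libraries. Of the 7 lateral plate and heart genes 1 rose and 2 fell, and of the 5 node and anterior mesendoderm genes 3 fell. The part of these tissues in the levels of the 5 genes was not tested.

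The last comparison adds LDN to structures with CHIR. Pax2 was 27.6-fold lower by mean TPM in TLSMGCL than in TLSMGC, with a log2 difference of -2.42 ± 0.20 (SE), and Osr1 was 52.9-fold lower at -1.70 ± 0.23. Lhx1 was 2.26-fold lower at -1.06 ± 0.18. Pax8 was lower, being listed at 0 in each TLSMGCL library, and the Wt1 libraries overlapped near 0. So 4 of 5 genes were lower, none was higher and 1 overlapped, beside 10.3% of all tested genes without overlap and lower in TLSMGCL and 5.48% higher. Against TLSMG, which received neither addition, the TLSMGCL mean was 220.1-fold lower for Osr1, 10.4-fold lower for Pax2 and 1.24-fold lower for Lhx1. Both Osr1 folds rest on a TLSMGCL mean of 0.0468 TPM, with coverage of at most 0.0422 in any library, so their size is imprecise. On the log2 scale Osr1 differed by -3.40 ± 0.22 (SE) between TLSMGCL and TLSMG. Lhx1 was the only 1 of the 5 above 1 TPM in TLSMGCL, and its small difference from TLSMG was smaller still under both other scalings, as described above.

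Few genes changed between these groups: 58 rose and 111 fell, which is 0.406% and 0.777% of those tested, and 1850 genes had an unadjusted p under 0.05. The split was 103 and 99 under median-of-ratios scaling and 98 and 121 with FPKM values. Of the 26 kidney genes, 5 fell, none rose and 21 did not pass the test, with a median of -0.16 against -0.04 for all genes. Itga8 fell from 9.43 ± 1.47 to 2.69 ± 0.39 TPM (SD, n = 3, limma adjusted p = 0.000115), and Cited1 fell from 80.9 ± 12.2 to 39.7 ± 3.98 TPM (SD, n = 3, limma adjusted p = 0.00302). Both calls held in every alternative run. Ret fell from 4.57 ± 1.64 to 1.85 ± 0.14 TPM (SD, n = 3, limma adjusted p = 0.0228), Jag1, a Notch ligand, fell from 11.0 to 6.60 TPM (limma adjusted p = 0.0206), and Emx2 fell from 12.4 to 8.09 TPM (limma adjusted p = 0.0431). Each of these last 3 calls was lost when TLSMGC replicate 1 or 2 or TLSMGCL replicate 2 was left out, and also in other alternatives. The count of kidney genes was 2 without TLSMGC replicate 1, TLSMGC replicate 2 or TLSMGCL replicate 2, and 3 without TLSMGCL replicate 1 or 3. The count over all genes was 56 without TLSMGC replicate 2, 70 without TLSMGCL replicate 1 and 78 without TLSMGCL replicate 3, against 169.

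Target genes of BMP signalling were counted too, since LDN inhibits its receptors. Of 10 genes 8 were tested, 3 fell and none rose in TLSMGCL against TLSMGC, and the median was -0.64 against -0.04 for all genes. Among all tested genes 0.777% fell and 0.406% rose there. Id3 fell from 68.9 ± 5.05 to 20.1 ± 2.60 TPM (SD, n = 3, limma adjusted p = 4.73e-05). Msx1 fell from 40.7 ± 4.63 to 17.7 ± 2.20 TPM (SD, n = 3, limma adjusted p = 0.0125), a call lost without TLSMGC replicate 2, TLSMGCL replicate 1 or TLSMGCL replicate 3. In TLSMG against Gastruloid 6 of the 8 BMP targets rose and none fell, with a median of 0.71 against 0.13, beside 31.5% of all tested genes that rose and 7.87% that fell. In TLSMGC against TLSMG 2 rose and 5 fell, with a median of -0.52 against -0.16, beside 10.4% of all tested genes that rose and 30.5% that fell. The relation of the 5 genes to BMP signalling was not tested.

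Of the 7 lateral plate and heart genes tested, 1 fell with LDN, none rose and 6 did not pass the test, with a median of -0.54 against -0.04 for all genes. Among all tested genes 0.777% fell and 0.406% rose. Foxf1, a marker of the lateral and splanchnic mesoderm, fell from 3.48, 3.13 and 3.12 TPM in TLSMGC to 0.626, 0.683 and 0.793 TPM in TLSMGCL (limma adjusted p = 0.00461). Hand1 was listed at 0 in all TLSMGCL libraries and at 0.523, 1.09 and 0.703 TPM in TLSMGC. The list summed to 22.4 to 32.0 TPM in TLSMGC and to 11.9 to 19.2 TPM in TLSMGCL. The part of the lateral plate in the lower Osr1 was not tested.

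Lhx1os, which starts 124 bases from Lhx1 on the other strand and took no part in the selection, was tested. It stood at 7.64, 6.26 and 6.44 TPM at 96 h, 1.74, 3.08 and 3.17 TPM in Gastruloid and 4.22, 4.37 and 4.45 TPM in TLSMG. The TLSMGC libraries held 7.55, 6.74 and 8.01 TPM and the TLSMGCL libraries 3.45, 4.13 and 5.60 TPM. Lhx1os fell from 96h to Gastruloid by 1.11 on the log2 scale (SE 0.17, limma adjusted p = 0.000144) and rose from TLSMG to TLSMGC by 0.66 (SE 0.17, limma adjusted p = 0.00688). It fell from 96h to TLSMG by 0.54 (limma adjusted p = 0.0176), a call lost without 96h replicate 1, where the highest adjusted p over the alternatives was 0.0685. Lhx1os was higher in TLSMG than in Gastruloid by 0.57 (limma adjusted p = 0.016), a call lost under both other scalings and without Gastruloid replicate 1. From TLSMGC to TLSMGCL the difference of -0.66 did not pass the test (limma adjusted p = 0.0827). Lhx1os had its highest mean in TLSMGC and not at 96 h, whereas Lhx1 had its highest at 96 h. Aatf, a tested neighbour of Lhx1 on the same strand, moved in the same directions by less. It differed by -0.36 in Gastruloid against 96h (limma adjusted p = 0.000225) and 0.24 in TLSMG against Gastruloid (limma adjusted p = 0.00593). In TLSMGC against TLSMG it differed by 0.29 (limma adjusted p = 0.00133), and the remaining comparisons did not pass the test. The library kit marks strand, but the strand setting of the abundance estimates is not given in the sources used here. Wt1os, which starts 18 bases from Wt1 on the other strand, was listed above 0 in the 6 Gastruloid and TLSMG libraries alone, at 0.111 to 0.536 TPM, the same groups in which Wt1 reached 1 TPM. It did not meet the minimum for testing.

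**Figure D4:**
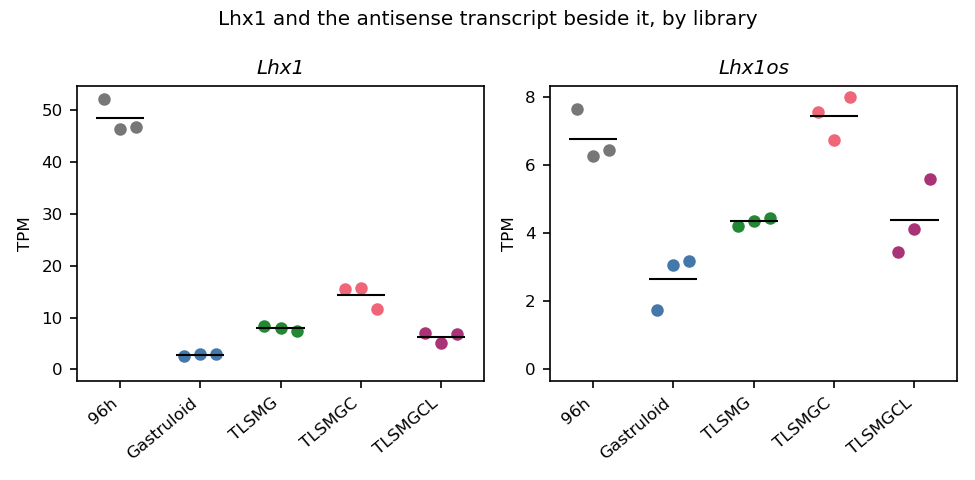
TPM (vertical axis, linear, 1 scale per panel) of Lhx1 and of Lhx1os on the opposite strand in the 5 groups (horizontal axis). Each point is 1 library and each line the mean of 3. Lhx1 is highest at 96 h with a mean of 48.5 TPM, and Lhx1os has similar levels at 96 h and in TLSMGC, with means of 6.78 and 7.43 TPM.

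The genes most like each member over the 15 libraries were found by Pearson's r on log2(TPM + 1), among the tested genes and with no test. For Lhx1 they were Rnf213 (r = 0.99), Pbx3 (0.98), Itga1 (0.97), Hsph1 (0.97) and Wnt8b (0.97). Wnt8b, a WNT ligand, stood at a mean of 6.15 TPM at 96 h and 0.203 TPM in Gastruloid. For Wt1 they were Igf1, Ypel2, Lmnb1, Tbx2 and Gskip, each with an r of 0.98. Igf1, a growth factor, was at most 0.0102 TPM in any 96h library, 1.45 to 1.95 TPM in Gastruloid, 8.72 to 10.7 TPM in TLSMG and at most 0.486 TPM in the other groups. Tbx2, a T-box repressor, had means of 1.89 TPM in Gastruloid and 5.01 TPM in TLSMG and under 1 TPM in the rest.

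For Osr1 the closest were Parvb (r = 0.98), Heatr5a (0.96), Itga5 (0.95), Sema6d (0.95) and Eif4e3 (0.95). Itga5, a chain of the fibronectin receptor, had means of 32.2 TPM at 96 h, 29.1 TPM in TLSMG and 15.5 to 18.4 TPM in the other groups. For Pax2 the likeness was lower, with Phf10 (r = 0.87), Fgf9 (0.87), Gm14226 (0.84), Pcdhac2 (0.80) and Chmp3 (0.80). Fgf9, a growth factor that maintains nephron progenitors in the kidney, had its highest mean, 10.1 TPM, in TLSMGC, where Pax2 was highest too. These likenesses rest on the same 5 groups and follow the group means.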

How the data were processed

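Bulk RNA sequencing of 15 mouse libraries, 3 per group, was analysed. The submitters' processing notes name cutadapt 2.4, STAR 2.7.3a and StringTie 2.0 and the build mm10. Per the file headers, the authors deposited 1 StringTie gene abundance table per library with TPM, FPKM and coverage for each gene. The deposited TPM values were the main measure, the deposited FPKM values an alternative, and the deposited coverage served to compare depth. Lines of the same gene ID, 7 to 13 repeated lines per table, were summed. Of the gene IDs, 54409 matched GENCODE M21 and 53499 had identical coordinates.

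Values of log2(TPM + 1) were fitted with limma 3.58.1 under R 4.3.3, with all 5 groups in 1 model, a trended prior variance, two-sided p-values and a threshold of 0.05. Genes below a mean of 1 TPM were left out. Python 3.11.15, numpy 2.4.6 and pandas 2.3.3 were used for the rest. The fit was tested on simulated data. Comparisons share libraries: 96h and Gastruloid enter 2 each, TLSMGC enters 2 and TLSMG enters 3. Without read counts, no intervals or detection limits were computed. The 5 genes and the gene lists were chosen with earlier results of these data known. Named genes were, per list and comparison, at most the 2 with the largest absolute log2 difference among those past the threshold with no overlap of libraries, every paralog, and the 5 genes most like each member. A result that this rule named is not reported here. Alternatives were another pseudocount, other minimum levels, median-of-ratios scaling, FPKM, a replicate block, the 2 groups alone and each library left out.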

Additional observations from a re-analysis of the deposited data

How the results depend on the processing

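Over the alternatives, 241 of 245 values of the 5 genes kept their sign. The 4 that did not concern pairs of groups whose libraries overlap: Pax2 in TLSMG against 96h became -0.08 under median-of-ratios scaling, -0.02 with FPKM and -0.02 without 96h replicate 1, and Wt1 in TLSMGCL against TLSMGC became -0.02 without TLSMGCL replicate 1. A pseudocount of 0.1 in place of 1 made differences of low genes larger by construction, such as -4.21 for Pax2 and -4.07 for Osr1 in TLSMGCL against TLSMGC and 3.31 for Pax8 in TLSMG against Gastruloid. FPKM values, being smaller beside the pseudocount, made them smaller, such as 0.33 for Pax2 in TLSMG against Gastruloid and -0.35 in Gastruloid against 96h. Of 130 counts of changed genes, 112 stayed within 1.5 times. With a minimum mean of 5 TPM, which tests fewer genes, the kidney genes that changed numbered 12 in TLSMG against 96h, 9 in TLSMG against Gastruloid, 13 in TLSMGC against TLSMG and 3 in TLSMGCL against TLSMGC. With the 2 groups alone, which have fewer samples, TLSMGCL against TLSMGC gave 42 genes and 2 kidney genes. Leaving out 1 library gave 7 to 11 kidney genes in TLSMG against Gastruloid, 56 to 198 genes and 2 to 7 kidney genes in TLSMGCL against TLSMGC. Same-numbered libraries deviated from their group means with a mean correlation of -0.02 (-0.18 to 0.10 over 30 pairs). This gave no sign of pairing by number, but with 3 libraries per group it cannot exclude a weak one. A replicate block gave 5659, 6381, 5382, 5599 and 122 changed genes in the 5 comparisons in the order given above, and 11 and 4 kidney genes in TLSMG against Gastruloid and TLSMGCL against TLSMGC. Low TPM limits the precision for Pax8, Wt1 outside Gastruloid and TLSMG, and the TLSMGCL levels of Pax2 and Osr1.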

Other observations

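Within a group, some of the 5 genes were high or low in the same library, together with some but not all other genes of the kidney and lateral plate lists. In TLSMG, Pax2, Pax8, Osr1 and Lhx1 were lowest in replicate 3, at 2.04, 1.57, 7.37 and 7.41 TPM, and so were Gata3 at 3.06, Gdnf at 0.467 and Itga8 at 3.46 TPM. This library was also the deepest, at 6.84 on the coverage per FPKM scale. In TLSMGC, Pax2, Pax8 and Lhx1 were lowest in replicate 3, at 4.06, 0.165 and 11.7 TPM. Ret at 2.67, Gata3 at 0.406, Gdnf at 0.843, Itga8 at 7.73 and Emx2 at 11.3 TPM were lowest in the same library, while Osr1 was lowest in replicate 1. At 96 h, Osr1 and Lhx1 were highest in replicate 1, as were Foxf1 at 14.2 and Gata3 at 2.22 TPM, against 0.618 and 0.478 TPM of Gata3 in the other 96h libraries. Other genes of these lists did not follow. In TLSMG, Foxf1 and Gata6 were lowest in replicate 2, at 4.68 and 3.71 TPM, and Cdh6 in replicate 1, at 16.2 TPM. In TLSMGC, Wnt11 was lowest in replicate 2, at 11.9 TPM. At 96 h, Itga8 and Cdh6 were lowest in replicate 1, at 6.30 and 1.46 TPM. All genes of this paragraph were picked out after their values were seen, and what set these libraries apart was not tested.

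Wnt11 and Emx2, both listed with the nephric duct, lay on opposite sides in the 2 groups with added CHIR. Wnt11 stood at 21.0, 21.3 and 21.7 TPM in TLSMGCL and at 14.6, 11.9 and 12.2 TPM in TLSMGC without overlap, a difference that did not pass the test (limma adjusted p = 0.101), while Emx2 was lower in TLSMGCL. Pax2 and Gata3 were at most 0.257 and 0.164 TPM in any TLSMGCL library.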
